A study of Mus musculus with 13 samples.

Results

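The MYC and MAX network is a family of transcription factors that bind DNA in pairs. The genes described here were given as 9 names (Myc, Mycn, Mycl, Max, Mxd1, Mxd4, Mxi1, Mnt and Mlx) and were found by matching the Ensembl identifiers of the deposited expression table to GENCODE M21 symbols. Of the 9 genes, 8 were among the 13201 genes of the table, and all 8 passed the filter on low values that left 12846 genes to test. Mycl was not among the 13201 genes. Polyadenylated RNA was sequenced from mouse haematopoietic stem cells (HSCs), which sit in the bone marrow, self-renew and give rise to every blood cell type. Each library was made by Smart-seq2, a full-length cDNA method for very small inputs, from 100 sorted cells. The cells lacked MEK1 (KO), the product of Map2k1 and an upstream kinase of ERK, or were wild type (WT), and they came from mice that had received 5-fluorouracil (5-FU) or from untreated mice. The 4 groups were KO after 5-FU (3 libraries, A5, A6 and A8), WT after 5-FU (4 libraries, A2, A3, A4 and D4), untreated KO (3 libraries, D4, D5 and D6) and untreated WT (3 libraries, D1, D2 and D3). The sources used here do not give how MEK1 was deleted and in which cells, the strain, the age, the dose of 5-FU or the time after it. The labels do not say whether libraries of one group came from different animals, so the p-values measure only the spread between these libraries, which may be technical. The series text names a technical repeat among the untreated WT libraries, so n = 3 for that group may overstate its independent samples.

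MYC and its relative MYCN activate genes of growth, ribosome production and nucleotide synthesis when paired with MAX. The MXD proteins, MXI1 and MNT compete for MAX and recruit SIN3 and histone deacetylases, so that the same sites are repressed. MLX pairs instead with MondoA (encoded by Mlxip) or with some MXD proteins and links the network to glucose sensing. In HSCs, MYC is known for balancing self-renewal against differentiation, and MYC and MYCN act there together. 5-FU is a pyrimidine analogue toxic to cycling cells, after which surviving HSCs start to divide.

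The pairs of this family bind the E-box CACGTG, which reads the same on both strands. RefSeq promoter windows (GRCm38.p6, 250 bases before to 50 bases after a gene's start) were at hand for 7 of the 8 genes in the table, with Myc as the one without, and 4 of these 7 held the motif. The share was 11.8% of the 9505 tested genes that had a window. The 4 sites are shown because they are places where members of the network could be regulated by the network itself, and the 3 sites in Nme1 and Hspd1 because, of the 4 MYC-induced genes with the smallest p after 5-FU, these held the motif. Each line gives 30 bases, 5′ to 3′ on the strand of the gene, with the E-box in capitals. A match is a description of the sequence and not evidence of binding.

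Max: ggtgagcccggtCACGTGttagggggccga
Mlx: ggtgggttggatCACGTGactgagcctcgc
Mxd4: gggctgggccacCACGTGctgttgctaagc
Mnt: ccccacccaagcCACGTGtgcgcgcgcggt
Nme1, upstream start: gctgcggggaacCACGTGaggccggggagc
Nme1, downstream start: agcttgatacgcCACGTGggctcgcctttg
Hspd1: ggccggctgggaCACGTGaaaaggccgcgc

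The first base of the E-box lay 3 bases before the start of Max (chr12:76962234-76962263, minus strand) and 40 bases before that of Mlx (chr11:101087238-101087267, plus strand). It lay 219 bases before the start of Mxd4 (chr5:34187912-34187941, minus strand) and 123 bases before that of Mnt (chr11:74830789-74830818, plus strand). In Nme1 it lay 18 and 29 bases before 2 alternative starts (chr11:93968273-93968302 and chr11:93968037-93968066, minus strand), and in Hspd1 80 bases before the upstream start (chr1:55088306-55088335, minus strand). The windows of Mycn, Mxd1 and Mxi1 did not hold these letters.

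Values are given below as normalized counts, that is, recovered reads divided by the size factor of the library. Log2 differences are on the deposited variance-stabilized scale, which shrinks differences at low counts. Recovered reads per library were 11416753 to 25380570 in 12 libraries and 45384866 in untreated WT D1. A count of 3 reads corresponded to a normalized count of 0.979 to 4.35, which covers counting error only. Each of the 8 members had reads in all 13 libraries. Map2k1, the deleted gene, stood at 33.1% of the WT mean in KO cells after 5-FU (adjusted p = 0.0339, limma) and at 50.3% in untreated KO cells (adjusted p = 0.460, limma), with no overlap between the genotypes in either case. Its normalized count was 328, 460 and 304 in KO and 604, 1634, 584 and 1573 in WT after 5-FU, and 611, 750 and 545 in untreated KO and 905, 1116 and 1766 in untreated WT. WT A2 and A4 after 5-FU thus lay within the range of untreated KO cells, and the high WT values after 5-FU were those of A3 and D4. WT 5-FU libraries A3 and D4 were more alike across genes (Pearson r = 0.9877) than any other pair of one group (0.912 to 0.9767), so results are also given with these 2 averaged into 1 replicate. With the pair averaged, the adjusted p of Map2k1 after 5-FU was 0.110. D4 carries the 2015 acquisition date of the untreated libraries while the other 6 libraries after 5-FU carry 2016, so date and treatment can hardly be told apart. A term for date in the fit is set by D4 against the other WT libraries after 5-FU. Results with that term therefore rest on D4 alone and cannot separate date from treatment. D4 is also the one library listed on a second flowcell alone, and untreated WT D1 is listed on both flowcells. The deposited column of WT D4 after 5-FU carries the added label R1, which the other columns lack. In RNA of sorted cells, fewer cells of a type and less RNA per cell cannot be told apart either.

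The sort was checked by marker genes. The HSC markers Kit, Ly6a, Slamf1, Procr, Hlf and Mecom were all in the table. Their summed normalized count was 5146 to 5667 in KO after 5-FU, 8663 to 12062 in WT after 5-FU, 10964 to 11436 in untreated KO and 12522 to 15142 in untreated WT. After 5-FU, Kit was at 1428 to 1606 in KO and 3521 to 5161 in WT. Slamf1 was at 1252 to 1951 in KO and 3358 to 4936 in WT. Procr went the other way, at 196 to 265 in KO and 1.16 to 165 in WT. For Ly6a, Hlf and Mecom the genotypes overlapped after 5-FU. The 4 markers of dividing cells (Mki67, Top2a, Birc5 and Ccnb1) summed to 22778 to 24333 in KO after 5-FU, 14810 to 15942 in WT after 5-FU, 7563 to 12137 in untreated KO and 3779 to 12066 in untreated WT. The 5 megakaryocyte markers (Pf4, Itga2b, Gp1bb, Vwf and Treml1), some of which HSCs also express, summed to 2837 to 6283 in KO after 5-FU and 26054 to 49237 in WT after 5-FU. Against this, they summed to 2400 to 5818 in untreated KO and 2649 to 3530 in untreated WT. The erythroid markers Klf1, Hbb-bt, Car1 and Rhag summed to 2794 to 3412 in KO after 5-FU and 3433 to 5883 in WT after 5-FU, against 557 to 1340 in untreated KO and 762 to 1475 in untreated WT. Within this sum, Hbb-bt was at 2215 to 3128 in KO and 1347 to 1911 in WT after 5-FU, opposite in direction to Klf1 (187 to 498 in KO and 848 to 2421 in WT) and Rhag (2.69 to 96.7 in KO and 1024 to 1992 in WT). Car1 was at 0 in all KO libraries of both conditions and in untreated WT D2 and D3. The 3 neutrophil markers in the table (Elane, Mpo and S100a8) summed to 24.7 to 33.6 in KO after 5-FU and 236 to 806 in WT after 5-FU, against 98.9 to 302 in untreated KO and 45.4 to 113 in untreated WT. After 5-FU the difference was mostly that of S100a8, at 9.11 to 29.5 in KO and 196 to 804 in WT. Elane was at no more than 67.1 and Mpo at no more than 27.8 in these libraries. Mpo was at 0 in all 3 KO libraries and in 2 of the 4 WT libraries after 5-FU, and was highest in untreated KO D4 (100). Of the B-cell markers, only Ebf1 was in the table, at no more than 17.9 in any library, and neither T-cell marker was. The 2 macrophage markers in the table (C1qa and Csf1r) summed to 50.7 to 191 in KO after 5-FU and 1.33 to 119 in WT after 5-FU. In untreated cells they summed to 1.64 to 89.9 in KO and 1.16 to 281 in WT. After 5-FU the HSC, dividing-cell, megakaryocyte, erythroid and neutrophil sums thus did not overlap between the genotypes, while the macrophage sums did. In untreated cells only the HSC sums were without overlap between the genotypes. Between 5-FU and untreated cells, the HSC, dividing-cell, erythroid and neutrophil sums did not overlap in either genotype, nor did the megakaryocyte sums in WT. The part of these sums in the results was not tested.

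Per kilobase of exon, the activators stood far above the repressors. Over the 13 libraries, the mean level was 1363 ± 362 normalized counts per kb for Myc and 472 ± 157 for Mycn (SD, n = 13). Myc was above Mycn in every library. Mlx followed at 198 ± 71.0 and Max, the obligate partner, at 127 ± 46.8 per kb (SD, n = 13), a pair whose spreads overlapped. The repressors came last, with Mxi1 at 49.6 ± 25.7, Mxd4 at 40.8 ± 19.3, Mxd1 at 31.1 ± 23.4 and Mnt at 28.1 ± 18.6 per kb (SD, n = 13), and neighbours among these 4 did not differ beyond their spread. Among all tested genes, Myc lay above 91.6% to 94.4% of genes per kb in the 4 groups, Mycn above 78.5% to 85.6%, and Mnt above 24.4% to 33.0%. The spread between libraries ran against the level. The coefficient of variation over all 13 libraries was 26.6% for Myc, against 75.4% for Mxd1 and 66.2% for Mnt.

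**Figure D1:**
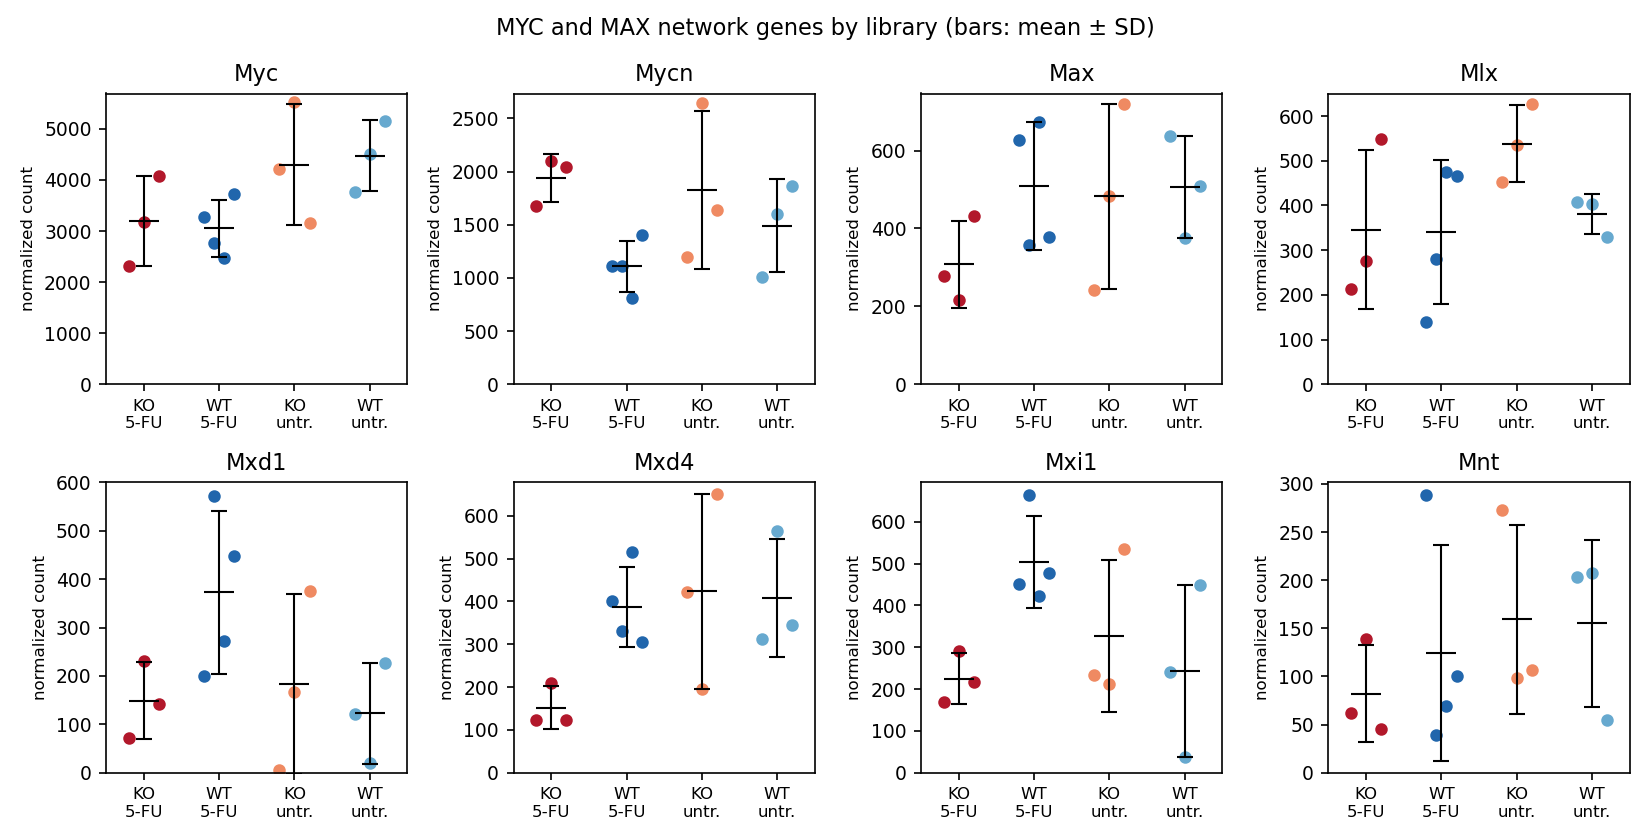
Normalized count (y axis, linear) of the 8 network genes in each library (points), by group on the x axis, with the mean and SD as black bars. Mycn is higher, and Mxd4 and Mxi1 are lower, in all 3 KO libraries than in all 4 WT libraries after 5-FU, while the Myc libraries of KO (2318 to 4083) and WT (2466 to 3718) overlap.

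Whether loss of MEK1 changed the network after 5-FU was asked first. None of the 8 members passed at an adjusted p under 0.05 (limma over all genes, Benjamini-Hochberg), while 10.9% of all 12846 tested genes did. At an unadjusted p under 0.05 there were 3 members, against 24.8% of all genes, and limma-voom on the recovered reads called 0. The libraries of the 2 genotypes did not overlap for 3 of the 8 members (Mycn, Mxd4 and Mxi1), against 27.0% of all tested genes.

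Myc (ENSMUSG00000022346, chromosome 15, 61985391 to 61990374, plus strand, GRCm38) had normalized counts of 2318, 3182 and 4083 in KO cells after 5-FU and of 3279, 2757, 2466 and 3718 in WT cells after 5-FU. The 2 sets overlapped almost wholly. Their means were 3195 ± 883 (SD, n = 3) in KO and 3055 ± 555 (SD, n = 4) in WT. The log2 difference was 0.04 with a 95% interval of -0.38 to 0.47 (adjusted p = 0.932, limma), and an exact two-sided permutation test gave p = 0.857, where the smallest possible is 0.0571. The interval leaves room for a change of moderate size in either direction. Without KO A8 the log2 difference was -0.13 and without WT A4 it was -0.04, so its sign rested on single libraries.

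Mycn (ENSMUSG00000037169, chromosome 12, 12936093 to 12941914, minus strand), which can stand in for Myc in HSCs, had 1678, 2098 and 2045 in KO cells and 1113, 1113, 814 and 1400 in WT cells after 5-FU. Each KO library was above each WT library. The mean was 1940 ± 228 (SD, n = 3) in KO and 1110 ± 239 (SD, n = 4) in WT, a ratio of 1.75. The log2 difference of 0.66 ± 0.22 (SE) did not pass (adjusted p = 0.0711, limma). It passed in a fit of the 7 libraries after 5-FU alone (adjusted p = 0.0258, limma), also with A3 and D4 averaged in that fit (adjusted p = 0.0367, limma). It also passed without untreated KO D5 (adjusted p = 0.0450, limma) or without untreated WT D1 (adjusted p = 0.0478, limma). Over 25 alternatives it stayed between 0.55 and 0.82 and passed in 4.

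Of the repressors, Mxd4 and Mxi1 had no overlap between the genotypes, and none of the 4 passed. Mxd4 (ENSMUSG00000037235, chromosome 5, 34173883 to 34187720, minus strand), an MXD protein known from differentiating cells, had 124, 210 and 124 in KO cells and 400, 332, 514 and 306 in WT cells after 5-FU. All KO libraries were below all WT libraries. The log2 difference was -0.65 ± 0.24 (SE, adjusted p = 0.0972, limma). Mxi1 (ENSMUSG00000025025, chromosome 19, 53310518 to 53375810, plus strand), another MAX-binding repressor, had 169, 290 and 216 in KO cells and 450, 663, 422 and 477 in WT cells after 5-FU. Here too the genotypes did not overlap, and the log2 difference was -0.63 ± 0.29 (SE, adjusted p = 0.180, limma). In the fit of the 7 libraries after 5-FU alone, Mxd4 (adjusted p = 0.0455, limma) and Mxi1 (adjusted p = 0.0472, limma) passed as lower, but neither passed once A3 and D4 were also averaged.

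Mxd1 (ENSMUSG00000001156, chromosome 6, 86647042 to 86669161, minus strand), the MXD protein linked to myeloid differentiation, had 72.6, 231 and 143 in KO cells and 200, 572, 272 and 448 in WT cells after 5-FU. KO A6 lay above WT A2, so the groups overlapped, and the log2 difference of -0.62 did not pass (adjusted p = 0.273, limma). The highest Mxd1 values of WT after 5-FU were those of the alike libraries A3 and D4. Max (ENSMUSG00000059436, chromosome 12, 76937269 to 76962201, minus strand) had 277, 216 and 432 in KO cells and 627, 358, 673 and 379 in WT cells after 5-FU (log2 difference -0.41, adjusted p = 0.326, limma). Mnt (ENSMUSG00000000282, chromosome 11, 74830920 to 74845725, plus strand), the broadly expressed repressor of the family, had 61.8, 139 and 45.5 in KO cells and 288, 39.1, 69.4 and 101 in WT cells (adjusted p = 0.792, limma), and the sign of its log2 difference turned to 0.06 without WT A2. Mlx (ENSMUSG00000017801, chromosome 11, 101087277 to 101092207, plus strand) had 214, 276 and 549 in KO cells and 139, 281, 475 and 465 in WT cells (adjusted p = 0.971, limma). For Max, Mnt and Mlx the libraries of the genotypes were interleaved.

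**Figure D2:**
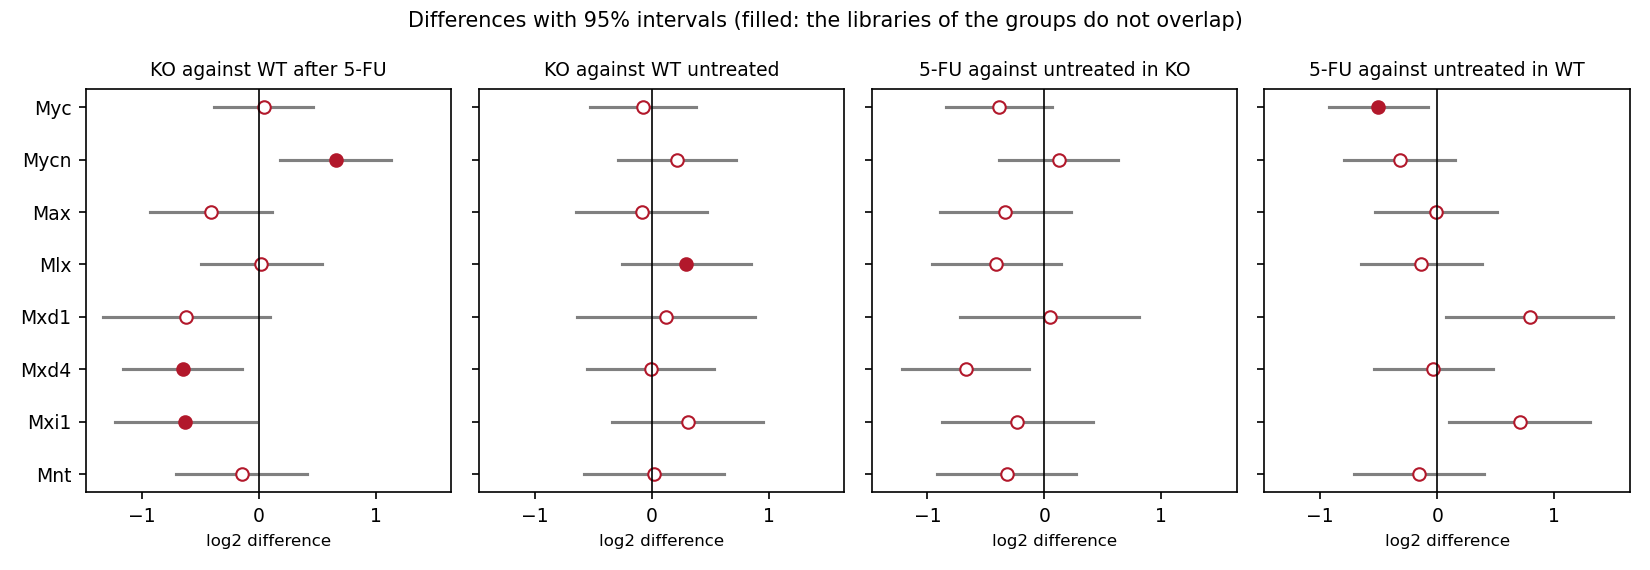
Log2 difference (x axis, first-named group minus second) of each network gene in 4 comparisons, with limma 95% intervals as grey lines. Filled points mark genes whose libraries did not overlap between the groups. After 5-FU these are Mycn (0.66), Mxd4 (-0.65) and Mxi1 (-0.63). No gene passed at an adjusted p under 0.05.

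The balance of activators and repressors within each library was computed per kb, as a description of genes whose values are given above. Mycn made up 29.2% to 37.4% of Myc plus Mycn in KO libraries after 5-FU and 21.4% to 25.0% in WT libraries after 5-FU. It made up 19.0% to 30.0% in untreated KO and 18.1% to 22.9% in untreated WT. The sum of Myc and Mycn was 13.9 to 27.8 times the sum of Mxd1, Mxd4, Mxi1 and Mnt in KO after 5-FU, against 5.99 to 9.39 times in WT after 5-FU. In untreated cells the ratio was 7.16 to 28.7 in KO and 12.7 to 17.9 in WT. The mean ratio was lowest in WT after 5-FU, and the untreated KO libraries spanned nearly the whole range. The repressor sum leaves out Mxd3 and Mga, which were not among the 9 names. Per kb, Mxd3 averaged 74.1 in KO and 38.2 in WT after 5-FU, and 107 and 23.3 in untreated cells. Mga averaged 31.1 in KO and 43.1 in WT after 5-FU, and 40.7 and 71.8 in untreated cells. A ratio that includes them was not computed.

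**Figure D3:**
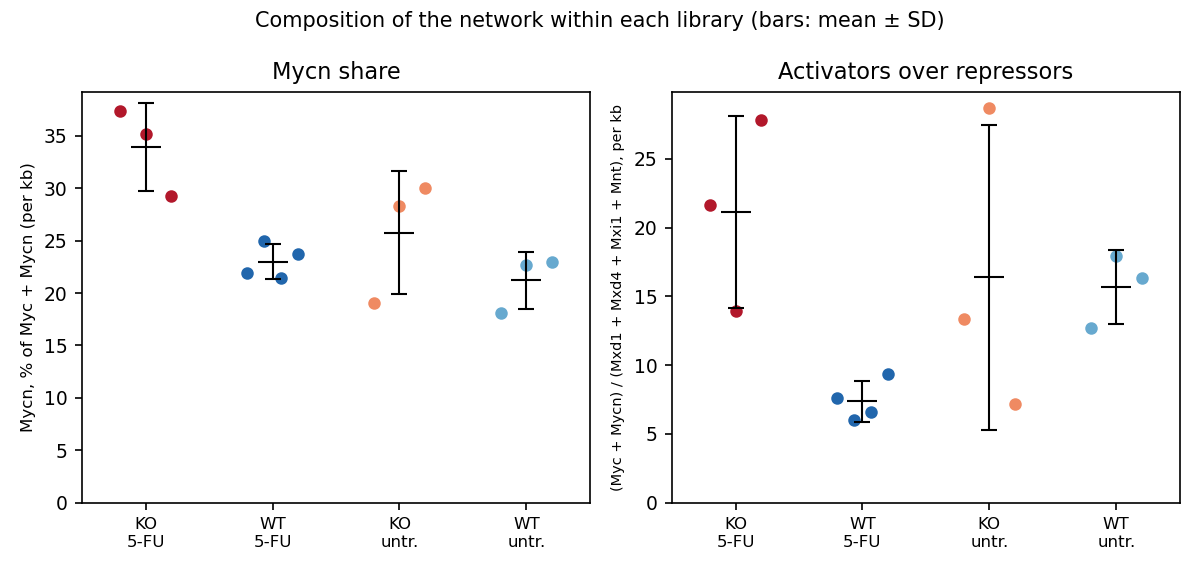
Left: share of Mycn in Myc plus Mycn per kb (percent). Right: ratio of Myc plus Mycn to the summed repressors Mxd1, Mxd4, Mxi1 and Mnt per kb. Points are libraries and bars the mean and SD of each group. The ratio averages 21.1 in KO and 7.38 in WT after 5-FU, and untreated KO libraries reach from 7.16 to 28.7.

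In untreated cells none of the 8 listed members differed detectably between the genotypes. The same comparison did not call the deleted gene Map2k1 (adjusted p = 0.460, limma), so an uncalled member is not shown to be unchanged. None of the 8 members passed, against 0.0311% of all tested genes, none had an unadjusted p under 0.05, and limma-voom called 0. Myc had 4216, 5532 and 3154 in untreated KO and 3771, 4510 and 5155 in untreated WT cells. These overlapped (log2 difference -0.08, 95% interval -0.53 to 0.38, exact permutation p = 0.90, smallest possible 0.10), and the sign turned to 0.11 without KO D6 and to 0.02 without WT D3. Mycn had 1201, 2643 and 1638 in untreated KO and 1009, 1602 and 1860 in untreated WT cells. KO D5 had the highest value of both Myc and Mycn among all 13 libraries. Mlx was the only member whose genotypes did not overlap in untreated cells, against 11.5% of all tested genes, with 453, 535 and 626 in KO and 408, 404 and 329 in WT (adjusted p = 0.755, limma). Mxd1 was the most uneven member, with 6.45, 168 and 377 in untreated KO and 121, 19.7 and 227 in untreated WT, where 6.45 came from 7 reads. Mxi1 shared that unevenness, with 233, 211 and 535 in untreated KO and 241, 38.2 and 449 in untreated WT. Mxd4 had 423, 196 and 652 in untreated KO and 312, 565 and 345 in untreated WT, and the sets overlapped.

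The response to 5-FU was then set against untreated cells of the same genotype. In KO cells none of the 8 members passed, against 5.92% of all tested genes. One of the 8 had an unadjusted p under 0.05, against 20.0% of all tested genes, limma-voom called 0, and no member's libraries separated, against 28.8% of all tested genes. Mxd4 averaged 152 ± 49.8 in KO cells after 5-FU and 424 ± 228 in untreated KO cells (SD, n = 3 each), a log2 difference of -0.67 (adjusted p = 0.145, limma). It passed as lower only without untreated KO D5 (adjusted p = 0.0495, limma), the untreated KO library with the lowest Mxd4. Myc averaged 3195 ± 883 in KO cells after 5-FU and 4301 ± 1191 in untreated KO cells (SD, n = 3 each; log2 difference -0.39, adjusted p = 0.337, limma; exact permutation p = 0.30).

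In WT cells none of the 8 members passed either, against 6.68% of all tested genes. At an unadjusted p under 0.05 there were 3 (Myc, Mxd1 and Mxi1), against 22.4% of all tested genes, limma-voom called 0, and Myc alone was without overlap, against 16.7% of all tested genes. Every WT library after 5-FU had less Myc than every untreated WT library, with means of 3055 ± 555 (SD, n = 4) after 5-FU and 4478 ± 692 (SD, n = 3) in untreated cells. The log2 difference was -0.50 with a 95% interval of -0.93 to -0.08 (adjusted p = 0.147, limma), and the exact permutation p of 0.0571 is the smallest that 4 against 3 libraries can give. With acquisition date as a term the difference was -0.24, with D4 as the only library after 5-FU that set it. Mxd1 averaged 373 ± 169 (SD, n = 4) in WT cells after 5-FU and 123 ± 104 (SD, n = 3) in untreated WT cells (log2 difference 0.79, adjusted p = 0.179, limma). Mxi1 averaged 503 ± 109 (SD, n = 4) after 5-FU and 243 ± 205 (SD, n = 3) in untreated WT cells (log2 difference 0.71, adjusted p = 0.152, limma). Untreated WT D2 was the lowest WT library for both genes, and without it the log2 difference was 0.515 for Mxd1 and 0.33 for Mxi1.

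Whether the response to 5-FU differed by genotype was tested as an interaction. None of the 8 members passed, against 2.84% of all tested genes, 1 had an unadjusted p under 0.05, against 16.7% of all tested genes, and limma-voom called 0. That member was Mxi1, at -0.94 ± 0.42 on the log2 scale (SE, adjusted p = 0.263, limma). Mycn stood at 0.44 (adjusted p = 0.546, limma), Mxd4 at -0.64 (adjusted p = 0.379, limma) and Myc at 0.12 (adjusted p = 0.887, limma).

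Across the 13 libraries, Mxd1 and Mxi1 had the most alike patterns of all pairs of members (Pearson r = 0.84, Spearman rho = 0.86), with low values of both in KO A5 after 5-FU and in untreated WT D2. Untreated KO D4 departed from this, with the lowest Mxd1 of all libraries (6.45) beside an Mxi1 of 233. Myc and Mycn had r = 0.52 (rho = 0.40), and Mycn and Mxd4 had r = -0.51 (rho = -0.51). These values describe libraries that share size factors and group differences. The 5 tested genes whose values followed Myc most closely over the 13 libraries were Cpne8 (r = 0.88), Abhd14a (r = 0.86), Pafah1b3 (r = 0.85), Tcf7l1 (r = 0.84) and A230050P20Rik (r = 0.83). Of these, Tcf7l1 rested on few reads, with a normalized count of at most 69.7. The 3 that ran most opposite were Adnp2 (r = -0.85), Fbxo30 (r = -0.83) and Prrc2c (r = -0.81). Both sets were picked as the extremes of all tested genes over 13 libraries, so the size of r is not evidence of a link with Myc. Fbxo30 averaged 264 in KO and 244 in WT after 5-FU, against 76.4 in KO and 93.8 in WT without treatment.

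Beside the listed genes, 3 further network genes were measured. Mlxip, which encodes the MLX partner MondoA, had 826, 937 and 783 in KO and 1261, 1253, 1568 and 1067 in WT cells after 5-FU. In untreated cells it had 932, 520 and 562 in KO and 1715, 1206 and 1140 in WT. It was lower in every KO library than in every WT library under both conditions, without passing after 5-FU (log2 difference -0.44, adjusted p = 0.153, limma) or in untreated cells (log2 difference -0.75, adjusted p = 0.193, limma). Mxd3, an MXD protein known from cells in S phase, averaged 176 ± 21.5 (SD, n = 3) in KO and 90.5 ± 47.1 (SD, n = 4) in WT after 5-FU, and 255 ± 140 in untreated KO and 55.2 ± 2.71 in untreated WT (SD, n = 3 each). Its genotypes, like those of Mlxip, did not overlap under either condition. Over all tested genes, 27.0% were without overlap after 5-FU and 11.5% in untreated cells. Neither difference of Mxd3 passed (adjusted p = 0.299 after 5-FU and 0.288 in untreated cells, limma). Mga, a large MAX-binding repressor, had 520, 545 and 368 in KO and 742, 616, 631 and 660 in WT after 5-FU (adjusted p = 0.442, limma). The genotypes did not overlap for Mga after 5-FU, but they did in untreated cells. Between untreated KO and WT cells, all 3 genes had an unadjusted p under 0.05 (Mlxip 0.00175, Mxd3 0.00518 and Mga 0.0480, limma), and none passed. Such a p was found for 1291 of all 12846 tested genes in untreated cells. After 5-FU, only Mlxip of the 3 had one (0.0316, limma), against 24.8% of all tested genes. Mlxipl, the other MLX partner, was not among the genes of the table.

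Calls were made among genes listed as targets of the network, whose regulation by it was not measured in these cells. Of 67 MYC-induced genes, a list that overlaps with ribosome biogenesis and replication genes, 22 (32.8%) were higher and 1 (Sord, a sorbitol dehydrogenase) was lower in KO than in WT after 5-FU. Over all tested genes, 5.36% were higher and 5.50% lower. The median log2 difference was 0.47 over the list and -0.02 over all genes. With A3 and D4 averaged, 18 were higher and 1 lower, and with limma-voom 17 and 1. Leaving out 1 library at a time left 13 to 26 higher, with 13 without KO A5 and 14 without KO A6 or without KO A8. Sord was not called without KO A5, KO A6 or WT A3. The markers of dividing cells were 22778 to 24333 in KO and 14810 to 15942 in WT in the same libraries. Their part in this difference was not tested.

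Among the MYC-induced genes, Nme1, a nucleoside diphosphate kinase whose E-boxes are shown above, had 8414, 7839 and 8420 in KO and 3808, 2896, 3125 and 3264 in WT after 5-FU (log2 difference 1.24 ± 0.13 SE, adjusted p = 2.87e-05, limma). Mrto4, a ribosome assembly factor, averaged 2053 ± 77.2 (SD, n = 3) in KO and 390 ± 110 (SD, n = 4) in WT, 5.26 times the WT mean (adjusted p = 3.33e-05, limma). Hspd1, the mitochondrial chaperonin, averaged 9269 ± 2013 (SD, n = 3) in KO and 3310 ± 372 (SD, n = 4) in WT, 2.80 times the WT mean (adjusted p = 4.24e-05, limma). Ncl, which encodes nucleolin, averaged 2.05 times the WT mean (adjusted p = 4.19e-05, limma). For each of these 4 genes all KO libraries lay above all WT libraries. The call held in all 25 alternatives for Nme1, Mrto4, Ncl and Hspd1. Nme1 has a close paralogue and Hspd1, Npm1, Hspe1 and Set have processed copies, so the counting could split or share their reads.

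Of the 67 MYC-induced genes, 60 had a promoter window and 17 of these (28.3%) held CACGTG, against 11.8% of tested genes. Among those called higher, 6 of 18 with a window held it (33.3%), and among the others 11 of 42 (26.2%). Mrto4 and Ncl had windows without these letters.

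Of 15 MYC-repressed genes, 12 were tested and 5 (41.7%) were lower and 0 higher in KO than in WT after 5-FU, with a list median of -0.68 log2. Over all tested genes, 5.50% were lower and 5.36% higher. The 5 were Gadd45g, Ndrg1, Ccng2, Btg2 and Ndrg2, and only Gadd45g and Ndrg1 passed once A3 and D4 were averaged. Limma-voom called 2. Without KO A5, KO A8, WT A3 or WT D4, 2 were lower, and without KO A6, 3. Gadd45g, a stress-induced growth arrest gene, had 270, 150 and 295 in KO and 1574, 2014, 1854 and 1947 in WT after 5-FU (log2 difference -1.98 ± 0.23 SE, adjusted p = 4.90e-05, limma). In untreated cells it had 264, 666 and 250 in KO and 185, 131 and 319 in WT, so that WT after 5-FU was the one group apart. Ndrg1, a differentiation and hypoxia gene, averaged 1525 ± 366 (SD, n = 3) in KO and 3717 ± 478 (SD, n = 4) in WT after 5-FU (adjusted p = 0.00161, limma). Btg2, an antiproliferative gene, had 101, 130 and 169 in KO and 422, 1066, 918 and 1009 in WT after 5-FU (adjusted p = 0.0205, limma; 0.0600 with the pair averaged). Ccng2, a cyclin of arrested cells, averaged 169 ± 84.1 (SD, n = 3) in KO and 632 ± 221 (SD, n = 4) in WT (adjusted p = 0.0161, limma; 0.0543 with the pair averaged). The megakaryocyte markers were 2837 to 6283 in KO and 26054 to 49237 in WT in the same libraries, and their part in these differences was not tested.

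**Figure D4:**
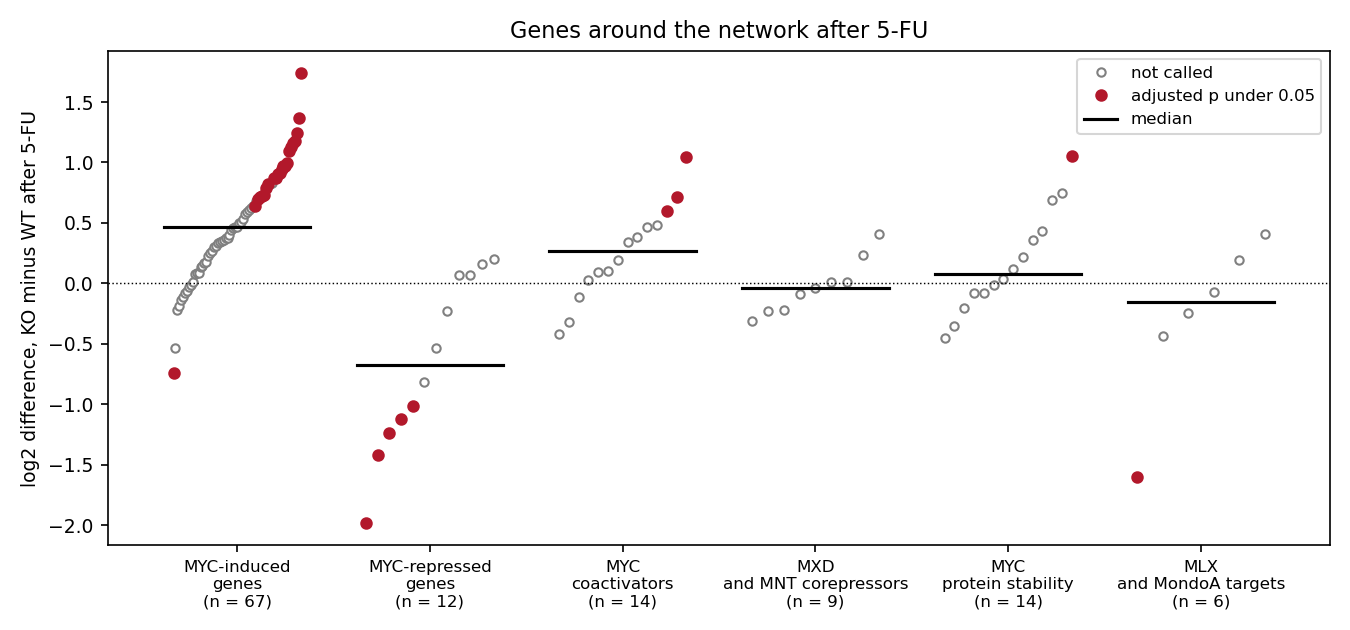
Log2 difference, KO minus WT after 5-FU (y axis), of every tested gene in 6 lists, ranked within each list. Filled points passed at an adjusted p under 0.05 (limma over all genes) and black lines are list medians. MYC-induced genes lie mostly above 0 (57 of 67, as do 55 in untreated cells; 22 higher and 1 lower, median 0.47) and MYC-repressed genes mostly below (5 lower of 12, median -0.68). Over all tested genes, 5.36% were higher and 5.50% lower.

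The cofactors of both arms were measured too. Among 14 coactivators of MYC, 3 (21.4%) were higher and 0 lower in KO after 5-FU, against 5.36% and 5.50% of all tested genes. Ruvbl2, an ATPase of the TIP60 and INO80 complexes, had 6474, 6137 and 8381 in KO and 4378, 3591, 1954 and 3182 in WT (log2 difference 1.05, adjusted p = 0.00182, limma). Its partner Ruvbl1 averaged 1.57 times the WT mean (adjusted p = 0.0107, limma). Actl6a, a subunit shared by chromatin remodellers, averaged 1.72 times the WT mean (adjusted p = 0.0337, limma), a call that was lost in 8 of 25 alternatives. Without KO A8, 1 coactivator passed, and 2 passed without KO A5, KO A6, WT A2, WT A4 or WT D4, whereas all 3 passed with A3 and D4 averaged. Among 9 corepressors of the MXD proteins and MNT, 0 passed, and limma-voom also called 0. An unadjusted p under 0.05 was found for 1 of the 9, against 24.8% of all tested genes. Sap18, the one with the smallest p, averaged 1989 ± 81.8 (SD, n = 3) in KO and 1412 ± 111 (SD, n = 4) in WT (adjusted p = 0.114, limma). Of 14 genes that control the stability of the MYC protein, 1 (7.14%) was higher, a share near the 5.36% of all tested genes. That gene was Set, which encodes an inhibitor of the phosphatase PP2A, with 11580, 12871 and 12771 in KO and 6657, 4617, 6549 and 5528 in WT (log2 difference 1.05, adjusted p = 7.57e-04, limma).

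On the MLX arm, 6 targets were tested and 1 (16.7%) was lower in KO than in WT after 5-FU, against 5.50% of all tested genes. The list median was -0.16 log2. In the response of KO cells to 5-FU, 1 (16.7%) was lower too, against 3.14% of all tested genes. The result is thus that of 1 gene and not of the list. Txnip, a glucose-responsive gene that MondoA and MLX activate and that restrains glucose uptake, had 2440, 2673 and 2749 in KO after 5-FU, against 7647, 9705, 9197 and 8465 in WT after 5-FU. Untreated cells had 10291, 8811 and 9516 in KO and 8751, 10018 and 10643 in WT. KO cells after 5-FU were thus the one group apart, at 29.9% of the WT mean after 5-FU (log2 difference -1.60 ± 0.12 SE, adjusted p = 9.74e-07, limma) and at 27.5% of the untreated KO mean (log2 difference -1.72 ± 0.13 SE, adjusted p = 2.12e-06, limma). The first difference passed in all 25 alternatives and the second in all 24. These include acquisition date as a term, which rests on WT D4 after 5-FU alone. Neither Mlx nor Mlxip passed in these comparisons.

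**Figure D5:**
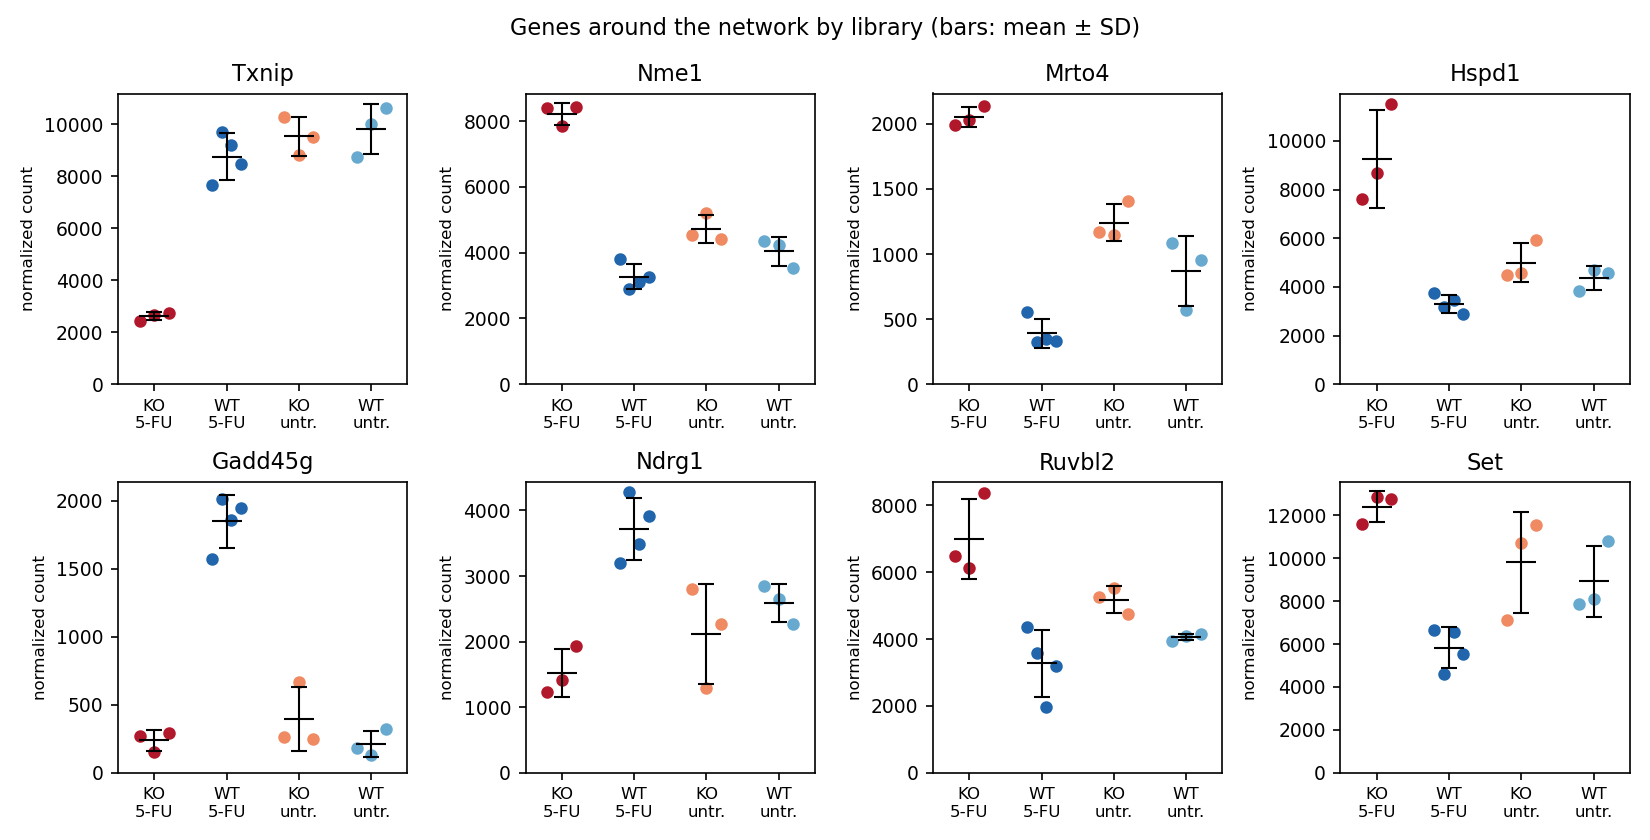
Normalized count (y axis, linear) by library (points) and group (x axis) of 8 genes, with mean and SD as black bars. The genes come from the lists of network targets, MYC coactivators and MYC protein stability. Txnip is lowest in KO after 5-FU (2440 to 2749), Gadd45g is highest in WT after 5-FU (1574 to 2014), and Nme1 is highest in KO after 5-FU (7839 to 8420).

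In untreated cells 0 of the 125 tested genes of the 7 lists passed between the genotypes with limma or limma-voom, and 13 had an unadjusted p under 0.05, a share close to that of all tested genes (1291 of 12846). Of the 67 MYC-induced genes, 55 had a log2 difference above 0 in untreated cells (median 0.21) and 57 after 5-FU. In the response of KO cells to 5-FU, 7 of the 67 MYC-induced genes (10.4%) were higher and 2 (2.99%) lower, against 2.78% and 3.14% of all tested genes, so the lower share was at the background. Npm1, a nucleolar chaperone, averaged 29363 ± 1073 in KO after 5-FU and 15893 ± 781 in untreated KO (SD, n = 3 each; adjusted p = 3.53e-04, limma). Hspe1, the co-chaperonin of Hspd1, averaged 2.29 times the untreated KO mean (adjusted p = 8.98e-04, limma), and Ncl 1.83 times (adjusted p = 7.68e-04, limma). Dusp2, a phosphatase of ERK, had 396, 404 and 406 in KO after 5-FU and 1795, 1374 and 1019 in untreated KO (log2 difference -1.22, adjusted p = 0.00208, limma). Cip2a, an inhibitor of the MYC-directed phosphatase PP2A, averaged 714 ± 297 in KO after 5-FU and 139 ± 137 in untreated KO (SD, n = 3 each; adjusted p = 0.0339, limma) and lost its call in 6 of 24 alternatives. With acquisition date as a term, which rests on WT D4 after 5-FU alone, none of Npm1, Hspe1, Ncl, Dusp2 and Cip2a passed.

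In the response of WT cells, 1 of the 67 MYC-induced genes (1.49%) was higher and 2 (2.99%) lower. Over all tested genes 3.72% were higher and 2.96% lower, so the counts were at or below the background. Plk1, a mitotic kinase, had 756, 1323, 1180 and 1096 in WT after 5-FU and 1.63, 750 and 3.17 in untreated WT (adjusted p = 0.00712, limma), so the untreated group was split. Ccnd2, which encodes cyclin D2, averaged 4710 ± 1025 (SD, n = 4) after 5-FU and 9460 ± 3003 (SD, n = 3) in untreated WT (adjusted p = 0.00874, limma), and Mrto4 averaged 390 ± 110 (SD, n = 4) after 5-FU and 869 ± 267 (SD, n = 3) in untreated WT (adjusted p = 0.0270, limma; 0.0774 with the pair averaged). Aurka, a mitotic kinase known to stabilise MYC proteins, had 1490, 2469, 2264 and 2290 in WT after 5-FU and 846, 546 and 427 in untreated WT (adjusted p = 0.00153, limma). Gadd45g averaged 8.72 times the untreated WT mean (adjusted p = 5.27e-05, limma), while Fth1, the ferritin heavy chain, averaged 69.1% of it (adjusted p = 0.00897, limma). Of these, Aurka and Gadd45g passed with acquisition date as a term, and Plk1, Ccnd2, Mrto4 and Fth1 did not. That term rests on WT D4 after 5-FU alone, so it does not separate date from treatment.

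The interaction of genotype and treatment passed for 8 of the 125 tested genes of the lists, against 2.84% of all tested genes. Of the 67 MYC-induced genes, 6 (8.96%) passed as higher (3 without KO A6) and 0 as lower, against 1.04% and 1.80% of all tested genes. The difference between the genotypes was more positive after 5-FU than in untreated cells for 6 MYC-induced genes, by 0.91 log2 for Npm1 (adjusted p = 0.00600, limma), 1.03 for Nme1 (adjusted p = 0.00945, limma), 1.20 for Hspd1 (adjusted p = 0.0116, limma) and 1.33 for Mrto4 (adjusted p = 0.0166, limma). It was more negative for Gadd45g (-2.41 log2, adjusted p = 0.00166, limma) and for Txnip (-1.56 log2, adjusted p = 2.86e-04, limma). Npm1, Nme1, Hspd1, Gadd45g and Txnip passed in all 23 alternatives of this test.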

How the data were processed

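Polyadenylated RNA of 13 libraries was used as one table. The authors deposited log2-scale, variance-stabilized values, made with DESeq2 per the submitters' processing notes, which also name Trimmomatic, Bowtie 1.1.1 and mm10. Counter, annotation and strand setting: not given in the sources used here. Whole reads were recovered by inverting the transformation, within 0.1 of a whole number for 100% of values in each library. Genes reaching a normalized count of 10 in 3 or more libraries were tested on the deposited log2 values with limma 3.58.1 (R 4.3.3), with 1 mean per group over all 13 libraries, eBayes with trend (residual df 9, prior df 7.67) and Benjamini-Hochberg adjustment at 0.05. Myc also had exact permutation tests (scipy 1.17.1). GENCODE M21 (GRCm38) gave symbols, positions and exon lengths, and RefSeq the promoter windows. The method was also run on simulated counts. These were drawn independently for each library, so they do not cover the likeness of A3 and D4 or the acquisition date.

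The members and gene lists were chosen with earlier results of these data known, so a pattern in them is not independent support. All members were named; of each list, up to 4 called genes with the smallest p, or 1 where none was called, and the 5 highest and 3 lowest correlations with Myc. Alternatives were other filters, pseudocounts of 1 and 5, other scalings, limma-voom, acquisition date as a term, only the groups compared, robust eBayes, averaging A3 and D4, and leaving out each library. Some listed marker genes are not reported here.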

Additional observations from a re-analysis of the deposited data

Results flagged for a closer look

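No member of the network had a library far from the other 3 of WT after 5-FU, the only group of 4, and none had a response to 5-FU that differed between the genotypes by the interaction test. Among the genes named from the lists, 6 had 1 library apart from the other 3 in that group, by a criterion that chance meets in about 1 of 20 groups (Dixon's 95% limit). Library A2 stood high for Mrto4 (554), Ccnd2 (6247) and Acaca (636), library A4 for Cip2a (1086) and Dusp2 (841), and library A3 for Ruvbl1 (5059), all in normalized counts.

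The response to 5-FU differed between the genotypes for 8 genes named from the lists (limma interaction, adjusted p under 0.05). The log2 interaction was 1.03 for Nme1, 1.33 for Mrto4, 0.68 for Ncl, 1.20 for Hspd1, 0.91 for Npm1 and 1.00 for Hspe1. It was -2.41 for Gadd45g and -1.56 for Txnip. With A3 and D4 averaged, the adjusted p of Ncl was 0.0635 and the other 7 still passed.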

How the results depend on the processing

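No paired analysis was possible because the groups compared share fewer than 2 replicate numbers. The count of members called in KO against WT after 5-FU was 3 with the groups of the comparison only and 1 when A3 and D4 were also averaged, a setting chosen after seeing the data. Leaving out 1 library at a time gave 0 to 1 there and 0 to 1 in the response of KO to 5-FU. In the other 3 comparisons no alternative called a member. The log2 difference of Myc between the genotypes ranged from -0.13 to 0.23 after 5-FU and from -0.26 to 0.11 in untreated cells with 1 library left out. Over all members and comparisons, 50 of 968 alternatives turned the sign and 7 brought a difference past the threshold. Over all genes, KO against WT after 5-FU gave 1395 calls, 881 with acquisition date as a term, 913 with the pair averaged, 869 with limma-voom and 694 to 1606 with 1 library left out. The response of KO gave 761 calls, 408 with limma-voom and 7 when date entered as a term, and that of WT 858, 219 with date as a term, 510 with the pair averaged and 415 with the 2 groups alone. The fits with date as a term rest on WT D4 after 5-FU alone. The median over all genes lay within 0.048 log2 of 0 in every setting. Members with low counts, such as Mxd1 with 7 reads in untreated KO D4, are limited by depth.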
